A study of Sus scrofa with 92 samples.

Results

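Interferon-stimulated genes are the genes that cells switch on when interferons bind their receptors. Type I interferons are made after pattern recognition receptors such as RIG-I sense foreign or displaced nucleic acid. Signaling through JAK kinases and STAT proteins then turns on antiviral effectors, regulators that feed the signal forward and inhibitors that end it. In the liver, hepatocytes as well as resident macrophages and endothelial cells can respond. The group described here holds 9 such genes, chosen by symbol: the effectors MX1, MX2, ISG15, IFIT1, IFIT3 and RSAD2, the transcription factors IRF1 and IRF7, and USP18, which removes ISG15 from proteins and restrains signaling at the interferon receptor. Of these 9, 7 have a row among the 25322 pig Ensembl identifiers of the count table and 6 have counts: MX1 (ENSSSCG00000012077), MX2 (ENSSSCG00000012076), IFIT1 (ENSSSCG00000010452), RSAD2 (ENSSSCG00000008648), USP18 (ENSSSCG00000000774) and IRF1 (ENSSSCG00000014277).

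ISG15 and IFIT3 were not analysed here. IRF7 (ENSSSCG00000012853), the factor that amplifies the type I response, was listed at 0 counts in all 92 libraries. A count of 0 allows up to 3 counts, or 0.436 CPM (counts per 1000000 counts of the library) in the shallowest and 0.181 CPM in the deepest library used, and this limit covers counting error only. The listed 0 is given here as such and not as a missing transcript.

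The animals were male juvenile Yorkshire-Landrace pigs that underwent splenectomy, blunt chest injury, hemorrhage and a liver crush injury, followed by limited and then full resuscitation. Every animal was fasted overnight, and all carried the same injuries. Carbohydrate prefed (CPF, 5 animals) pigs received a bolus of syrup before induction, and fasted (FS, 18 animals) pigs did not. Biopsies of the liver periphery were taken at Baseline (B) and at 2, 8 and 20 hours of full resuscitation (FR2, FR8 and FR20), so that all changes are within animals under anesthesia and intensive care and no uninjured group is among the libraries used here. Of the animals, 3 FS (numbers 2, 16 and 20) and 2 CPF (numbers 7 and 8) died. Animals are numbered 1 to 23 in the order of their labels.

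Depth and tissue identity were checked first. The 88 libraries used held 6877117 to 16613261 counts, with a median of 12071958. Albumin stood at 13202 CPM or more in each of them. This check covers depth and the presence of liver RNA, and not whether a library matches its timepoint label. Of the other libraries, 3 FS Baseline libraries (animals 17, 19 and 21) held at most 899 albumin counts, and 1 CPF FR8 library (animal 3) held almost no counts in all. These 4 were left out, which gave 15, 18, 18 and 18 FS libraries and 5, 5, 4 and 5 CPF libraries at B, FR2, FR8 and FR20. Levels are CPM, scaled to library size and not to transcript length, so they are compared between libraries and not between genes. MX1 with MX2, and IFIT1 with its neighbors of the IFIT family, share sequence, and how reads matching more than 1 gene were counted is not given in the sources used here, so the split within these families is uncertain.

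In FS animals the values at the 4 timepoints overlapped for each member, and single libraries reached far above the medians. MX1, a dynamin-like GTPase that blocks viral replication, had medians of 43.9, 40.5, 34.4 and 44.3 CPM at B, FR2, FR8 and FR20. Its FS values ran from 16.5 to 79.6 at Baseline, and the ranges of the later groups were 11.4 to 315.3, 18.3 to 440.6 and 13.6 to 137.9. The groups overlapped over most of their range, and the widest span was at FR2 and FR8.

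MX2, the second GTPase of that family, had FS medians of 4.01, 5.02, 2.60 and 4.47 CPM at B, FR2, FR8 and FR20, inside ranges of 0.736 to 16.8, 1.14 to 27.8, 0.697 to 25.7 and 0.183 to 17.6. IFIT1, which binds viral RNA lacking the host cap mark, had medians of 11.3, 12.3, 6.82 and 11.2 CPM, inside ranges of 6.85 to 24.96, 4.05 to 69.6, 3.72 to 131.9 and 4.02 to 26.3. RSAD2 (viperin), an enzyme that makes a chain-terminating nucleotide, had medians of 2.99, 3.85, 1.74 and 3.06 CPM, inside ranges of 0.631 to 11.3, 0.506 to 39.0, 0.253 to 93.9 and 0.545 to 23.9. For each of these 3 genes the lowest median was at FR8, and the FR8 group also held a library that reached or passed the top of most other groups.

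USP18 had FS medians of 15.3, 12.8, 8.69 and 13.7 CPM at B, FR2, FR8 and FR20, with ranges of 4.99 to 39.3, 4.49 to 85.3, 4.74 to 84.8 and 5.22 to 59.2. IRF1, the transcription factor that interferon gamma and inflammatory cytokines induce within hours, had medians of 40.6, 41.0, 35.6 and 36.6 CPM. In the same order its ranges were 22.3 to 124.9, 20.4 to 135.7, 20.2 to 50.7 and 15.6 to 46.6. IRF1 thus spread most at the timepoints where its highest libraries stood, B and FR2, and least at FR8.

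**Figure D1:**
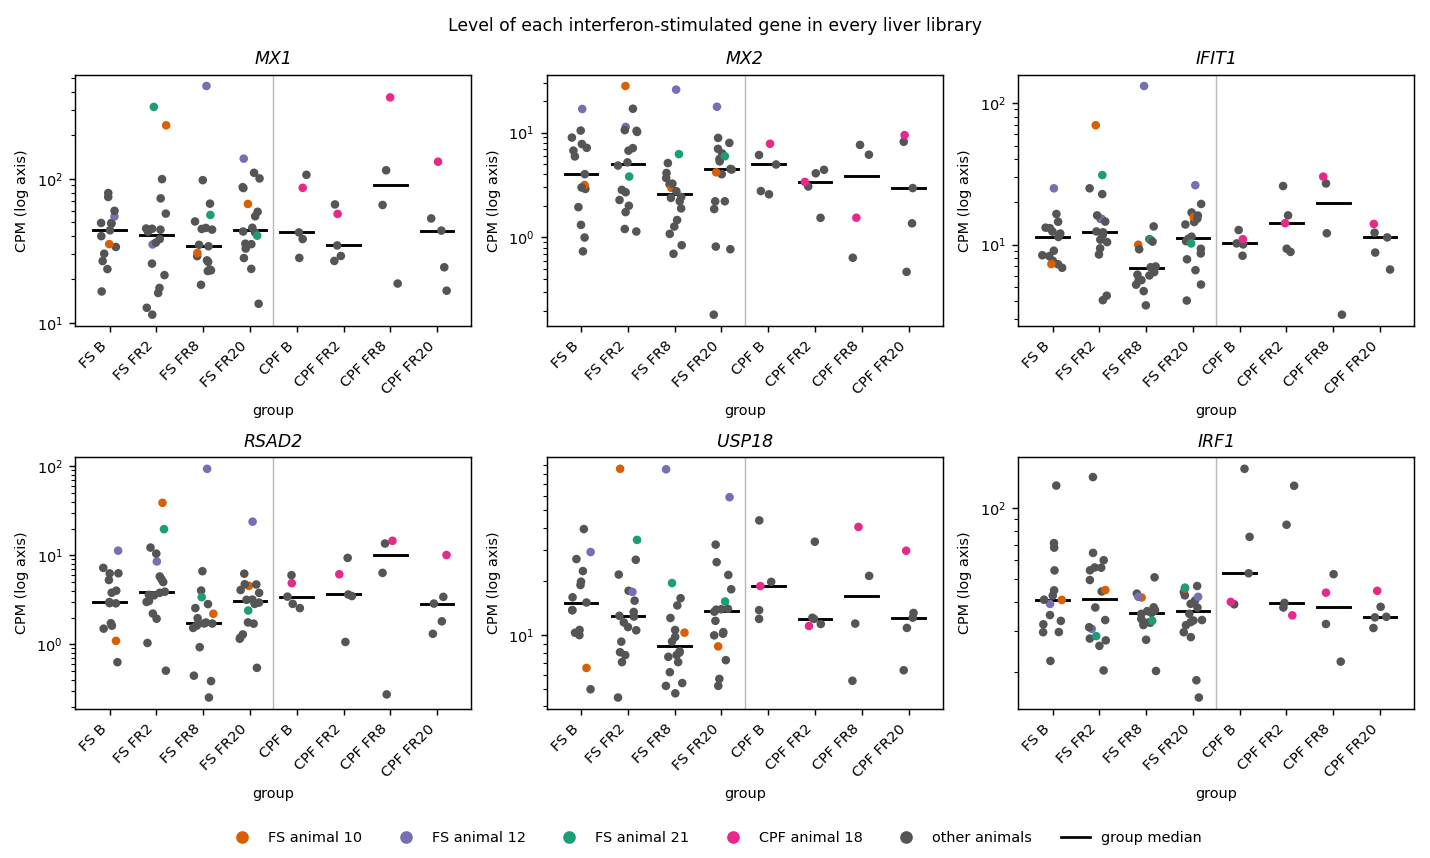
Each panel plots the CPM of 1 gene (log axis) in the 88 liver libraries by group, with 1 point per library and a bar at the group median. Colored points follow the 4 animals with a library over 4 times its group's median. For MX1, IFIT1, RSAD2 and USP18, FS animals 10 and 21 stand above the median at FR2, and FS animal 12 and CPF animal 18 at FR8. The distance varies by gene and animal, and for IRF1 these points lie inside the range.

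The first comparison asked how the liver changed from Baseline after resuscitation in FS animals. The test was edgeR's quasi-likelihood F test with animal terms, and calls needed an adjusted p (Benjamini-Hochberg) under 0.05 together with a log2 change of 1 or more in either direction. At FR2vB 0 of 6 members were called, where 11% of the 13667 genes tested were. At FR8vB it was 0 of 6 against 11.8%, and at FR20vB 0 of 6 against 9.94%. The fitted log2 changes of the 6 members lay between -0.08 (USP18) and 0.68 (RSAD2) at FR2vB, between -0.60 (USP18) and 0.08 (MX1) at FR8vB, and between -0.37 (IRF1) and 0.32 (MX1) at FR20vB. Their standard errors ran from 0.20 to 0.39, and the lowest adjusted p of any member was 0.0896, for USP18 at FR8vB. The median member changed by 0.32, -0.41 and -0.09 at the 3 timepoints, beside -0.04, 0.00 and 0.04 for all genes tested.

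Within animals the directions were mixed. Between B and FR2, RSAD2 was higher in 11 and lower in 4 of the 15 FS animals with both libraries, and USP18 was higher in 3 and lower in 12. Between B and FR8, USP18 was lower in 11 of 15 animals, with a median within-animal change of -1.08 on the log2 scale and a range from -1.98 to 1.53. MX1 between B and FR20 was higher in 10 and lower in 5, from -1.74 to 2.37. A change in one direction in every animal was seen for no member in any FS comparison. The USP18 change at FR8vB (-0.60) had an adjusted p of 0.0340 without animal 10 (-0.65) and of 0.0244 without animal 12 (-0.79), both still under the fold minimum. IFIT1 at FR2vB (0.50, adjusted p = 0.108) had an adjusted p of 0.0495 without animal 11 (0.62).

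**Figure D2:**
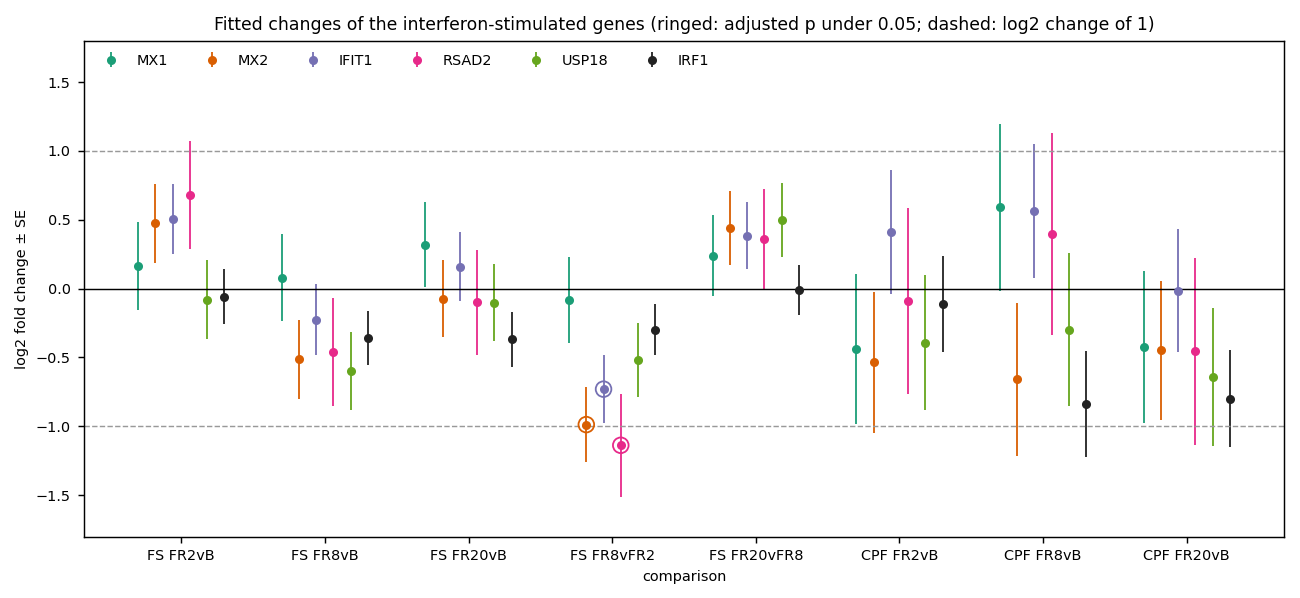
The plot gives the fitted log2 fold change with its standard error for the 6 members in 8 comparisons. All fitted values but 1 lie inside the dashed lines at a log2 change of 1, and the 3 ringed points with an adjusted p under 0.05 (RSAD2, MX2 and IFIT1) are all in FS FR8vFR2.

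Between 2 and 8 hours of resuscitation the FS animals showed the one change that passed the test. RSAD2 fell by 1.14 on the log2 scale from FR2 to FR8 (SE 0.37, adjusted p = 0.0170). It was called as 1 of 6 members, where 5.96% of all genes were called in this comparison and 3.43% were called as falling. The level was lower at FR8 in 16 of 18 animals, among them animal 1 (3.90 to 0.253 CPM), animal 14 (3.55 to 0.386) and animal 16 (5.01 to 0.445). Those 3 FR8 values rested on 3, 6 and 5 counts, so the size of these falls is uncertain. The level was higher in animal 11 (0.506, from 4 counts, to 1.53) and in animal 12 (8.54 to 93.9). MX2 changed by -0.99 (SE 0.27, adjusted p = 0.00461), just under the fold minimum, and IFIT1 by -0.73 (SE 0.24, adjusted p = 0.0193). With the adjusted p alone, 3 of 6 members were past the threshold as falling, beside 13.9% of all genes.

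MX2 was lower at FR8 in 14 of 18 FS animals, with a median within-animal change of -1.02, and IFIT1 in 15 of 18, with a median of -0.82. The remaining members had fitted changes of -0.52 (USP18, SE 0.27, adjusted p = 0.148), -0.30 (IRF1, SE 0.18, adjusted p = 0.231) and -0.08 (MX1, SE 0.31, adjusted p = 0.874). USP18 was lower in 12 of 18 animals, MX1 in 9 and IRF1 in 8. The difference between members was not tested.

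The RSAD2 call rested on the animal terms and on 1 animal. Without animal 10, whose FR2 library held 39.0 CPM, the change was -0.85 with an adjusted p of 0.0518. Without the replicate block, that is without animal terms, it was -0.03 with an adjusted p of 0.977, MX2 was -0.85 (adjusted p = 0.124) and IFIT1 -0.22 (adjusted p = 0.664). The group means of RSAD2 were 7.37 ± 9.18 CPM at FR2 (SD, n = 18) and 7.20 ± 21.7 at FR8 (SD, n = 18), and animal 12 alone held 93.9 at FR8. The FR8 libraries of animals 10, 17, 19 and 21, all with lower RSAD2 at FR8, stood apart in hepatocyte markers (6 genes, led by albumin). Their sums were 155406, 176226, 166280 and 170413 CPM, beside at most 94295 in the other FS FR8 libraries and a Baseline median of 179112. Whether these libraries match their timepoint labels was not tested, and no fit left out these animals together. IFIT1 had an adjusted p of 0.0634 without animal 10 and of 0.0545 without animal 16, while the adjusted p of USP18 was 0.0474 without animal 12. From FR8 to FR20 the members' fitted changes were between -0.01 (IRF1) and 0.50 (USP18), and 0 of 6 were called, beside 1.46% of all genes.

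**Figure D3:**
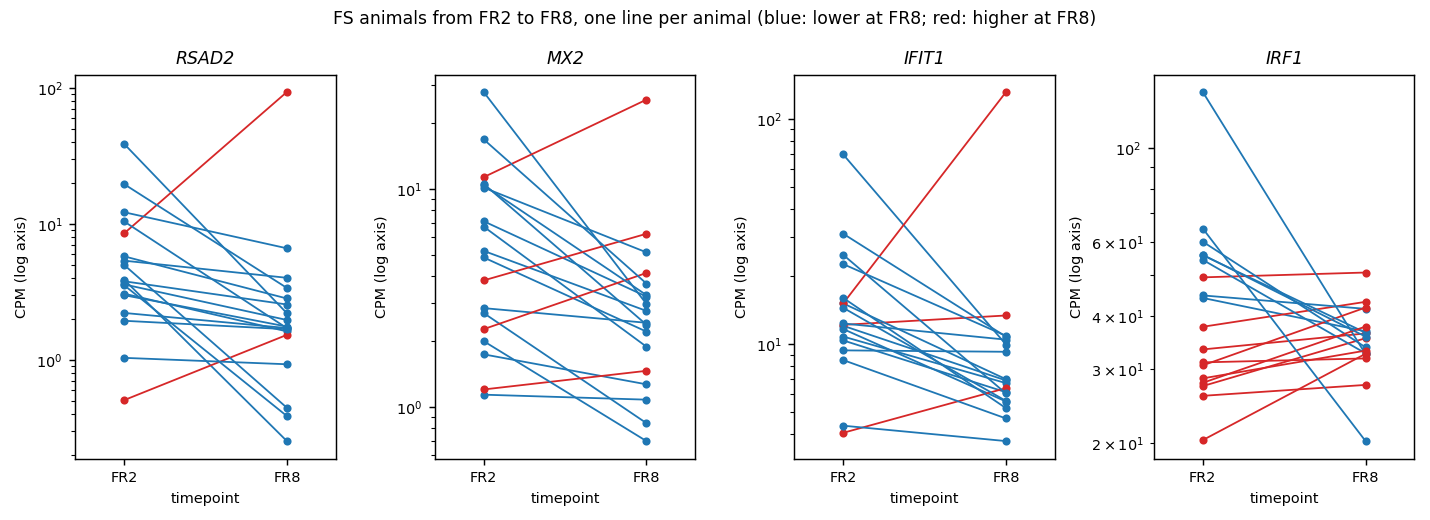
CPM (log axis) of RSAD2, MX2, IFIT1 and IRF1 at FR2 and FR8 is joined by a line for each of the 18 FS animals, blue where the level was lower at FR8 and red where it was higher. RSAD2 was lower in 16, IFIT1 in 15 and MX2 in 14 animals, while IRF1 was lower in 8 and drew together into a narrower range.

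CPF animals were followed in the same fit. Of 6 members 0 were called at FR2vB, FR8vB and FR20vB, beside 2.41%, 8.83% and 0.702% of all genes. These shares rested on single animals: without animal 13 it was 0.139% at FR2vB, without animal 18 it was 2.32% at FR8vB, and at FR20vB it was 0% without animal 3 or 18 and 2.61% without animal 13. The FR20 library of animal 13 held 230263 CPM of the summed hepatocyte markers, beside a group median of 41279 and a CPF Baseline range of 126592 to 205891. Whether it matches its timepoint label was not tested. MX1 in animals 3, 7, 8, 13 and 18 stood at 28.2, 42.4, 106.4, 38.1 and 86.4 CPM at B, at 26.9, 29.1, 66.3, 34.4 and 57.0 at FR2, and at 24.3, 16.7, 43.7, 53.0 and 131.3 at FR20. At FR8 it was 18.7, 65.7, 114.4 and 367.0 CPM in animals 7, 8, 13 and 18, so that the 4 FR8 libraries spanned more than the other 3 groups together. MX1 was lower at FR2 than at B in each of the 5 CPF animals, with a fitted change of -0.44 (SE 0.54, adjusted p = 0.688).

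RSAD2 in the same order of CPF animals was 2.55, 3.44, 5.99, 2.85 and 4.87 CPM at B, and 3.63, 1.06, 3.49, 9.37 and 6.14 at FR2. At FR8 animals 7, 8, 13 and 18 held 0.274, 6.36, 13.6 and 14.6 CPM, and at FR20 the 5 animals held 1.81, 1.31, 2.87, 3.42 and 10.1. The FR8 group contained both the lowest and the highest RSAD2 value of all CPF libraries. IFIT1 at FR8 showed the same order of animals, with 3.20, 12.01, 27.01 and 30.2 CPM, and USP18 likewise, with 5.57, 11.6, 21.5 and 40.4. MX2 did not, with 0.639, 7.63, 6.15 and 1.54 CPM. The SD of log2 CPM over these 4 FR8 libraries was 2.38 for RSAD2, above that of 99.9% of the genes tested, and 1.78 for MX1, above 99.3%, beside a median SD of 0.49. Much of the RSAD2 spread came from animal 7, whose value rested on 3 counts and carries wide counting error.

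IRF1 was the member with the lowest fitted change in CPF animals at FR8vB and FR20vB, at -0.83 (SE 0.38, adjusted p = 0.138) and -0.80 (SE 0.35, adjusted p = 0.242). Its Baseline values in animals 3, 7, 8, 13 and 18 were 39.0, 147.2, 52.8, 75.5 and 39.9 CPM, and its FR20 values were 30.9, 38.0, 34.3, 34.4 and 44.4. The level at FR20 was below the animal's own Baseline in 4 of 5 animals. The largest drop was in animal 7, and animal 18 was slightly higher. At FR2 animal 7 held 124.6 CPM, below its Baseline, and animal 8 held 85.0, above its Baseline, both over the 34.95 to 39.5 of the other 3.

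The question of the study was whether feeding before shock altered the liver's response, and for these genes the fed groups were set against each other. In the difference of the changes (CPF minus FS) 0 of 6 members were called at FR2vB, FR8vB and FR20vB, and 0% of all 13667 genes were called in each. Of all genes, 397, 468 and 521 had an unadjusted p under 0.05, DESeq2 called 0, 2 and 2, and edgeR's likelihood ratio test 1, 0 and 0. The members' fitted differences ran from -1.01 (MX2, SE 0.59) to -0.05 (IRF1, SE 0.40) at FR2vB and from -0.48 (IRF1, SE 0.43) to 0.86 (RSAD2, SE 0.83) at FR8vB. At FR20vB they ran from -0.75 (MX1, SE 0.63) to -0.17 (IFIT1, SE 0.51). For the members other than IRF1 the standard errors of these differences ran from 0.51 to 0.83, so a difference of 1 on the log2 scale, within 2 standard errors, was not detectable with these animals.

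CPF was then compared with FS at each timepoint. At B 0 of 6 members were called, beside 0.0257% of 11688 genes, and at FR2, FR8 and FR20 0 of 6, beside 0% of the genes. At these 3 timepoints 664, 618 and 400 genes had an unadjusted p under 0.05, while DESeq2 called 0, 7 and 2 genes and the likelihood ratio test 2, 0 and 4. MX1 at FR8 had the highest fitted difference, 1.17 (SE 0.66, adjusted p = 0.955), with a CPF median of 90.1 CPM beside an FS median of 34.4. MX2 at FR2 had the lowest, -1.11 (SE 0.61, adjusted p = 0.937), with medians of 3.38 and 5.02 CPM. IRF1 was the highest member at B, at 0.60 (SE 0.32, adjusted p = 0.682).

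Survival was recorded for each animal. Animals that died were compared with those that lived at each timepoint with a term for fed status, and 0 of 6 members were called at B, FR2, FR8 and FR20, beside 0% of all genes. Unadjusted p was under 0.05 for 998, 656, 265 and 642 genes, DESeq2 called 10, 3, 0 and 0, and the likelihood ratio test 19, 9, 0 and 1. At FR8 all 6 fitted differences were below 0, from -1.62 (RSAD2, SE 1.19) to -0.23 (IRF1, SE 0.17), with an adjusted p of 1 each. The FR8 values of RSAD2 were 1.76, 0.445 and 6.64 CPM in the FS animals that died (2, 16 and 20) and 0.274 and 6.36 in the CPF animals that died (7 and 8). Animal 12, with 93.9, lived, and so did CPF animals 13 and 18. At FR20 RSAD2 had a fitted difference of -1.17 (SE 0.62, adjusted p = 0.904). The values of animals that died and lived overlapped for RSAD2 at both timepoints.

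The largest excursions were those of single libraries, described here by value and without a test, since they were picked for being high. A member was over 4 times the median of its group in 6 of 88 libraries, which came from 4 animals. FS animal 10 at FR2 held MX1 at 234.9, MX2 at 27.8, IFIT1 at 69.6, RSAD2 at 39.0 and USP18 at 85.3 CPM, between 5.54 (MX2) and 10.1 (RSAD2) times the FR2 medians. All 5 genes had been at 35.2, 3.16, 7.28, 1.10 and 6.57 CPM at Baseline in this animal and were at 30.5, 2.97, 9.97, 2.21 and 10.4 CPM at FR8. The excursion of animal 10 was thus seen in 1 of its 4 biopsies. The order in time rests on the labels. Its summed hepatocyte markers were 76652, 45595, 155406 and 54123 CPM at B, FR2, FR8 and FR20. The FS medians were 179112, 128132, 77200 and 44344, so this animal did not follow their steady fall. Whether its biopsies match their timepoint labels was not tested.

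FS animal 12 showed it later. At FR8 it held MX1 at 440.6, MX2 at 25.7, IFIT1 at 131.9, RSAD2 at 93.9 and USP18 at 84.8 CPM, from 9.76 (USP18) to 54.0 (RSAD2) times the FR8 medians. RSAD2 there rested on 1491 counts and MX1 on 6999. At FR20 the same animal still had the highest FS value of each of these 5 genes, with RSAD2 at 23.9 and USP18 at 59.2 CPM. At Baseline, before injury, it already had the highest FS value of MX2 (16.8), IFIT1 (24.96) and RSAD2 (11.3), but not of MX1 (54.8) or USP18 (29.2).

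FS animal 21 at FR2 held MX1 at 315.3 CPM, the highest MX1 of that group, RSAD2 at 19.7, IFIT1 at 31.0 and USP18 at 34.2, while MX2 was at 3.80, below the group median. Its values at FR8 were 56.1 (MX1), 3.39 (RSAD2), 10.8 (IFIT1) and 19.6 CPM (USP18). Its Baseline library is one of those without albumin. CPF animal 18 at FR8 was similar in pattern, with MX1 at 367.0, 4.07 times the CPF median, IFIT1 at 30.2, RSAD2 at 14.6 and USP18 at 40.4, and MX2 at 1.54 CPM, the second lowest of 4. In both of these libraries MX1 was high without MX2, a paralog from the same gene family.

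**Figure D4:**
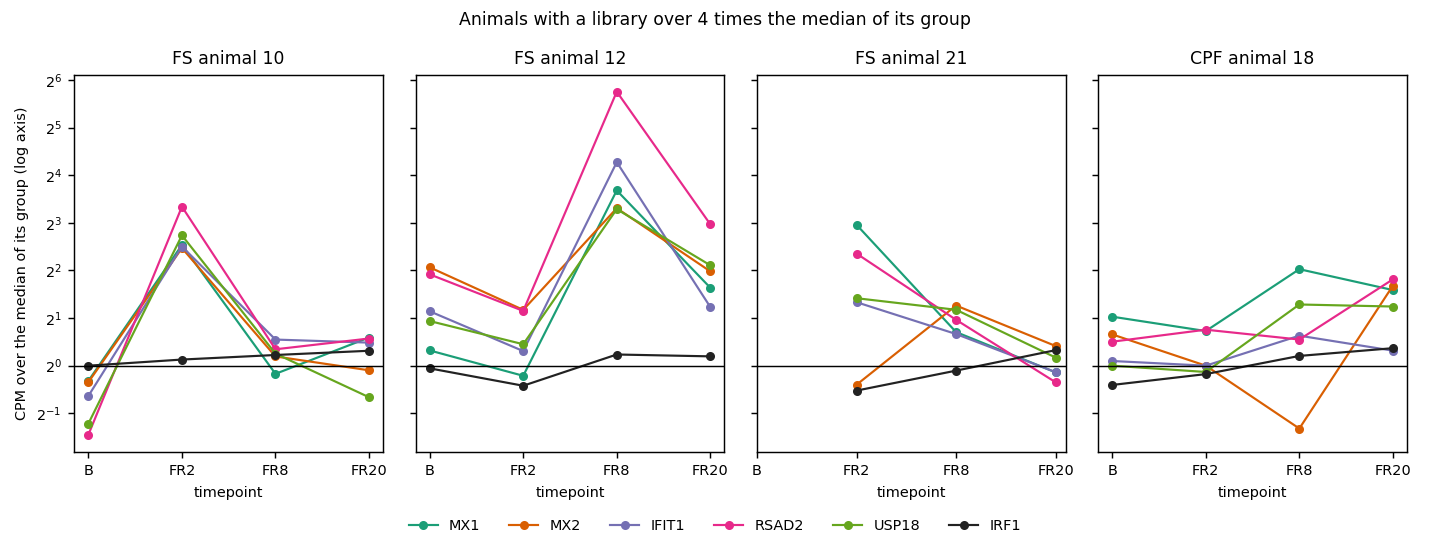
Lines give each member's CPM over the median of its group (log axis) at B, FR2, FR8 and FR20 in the 4 animals with a library over 4 times a group median. Animal 10 stands high at FR2 alone, and animal 12 at FR8 and FR20 and, for MX2 and RSAD2, at B, while IRF1 stays close to 1 throughout.

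IRF1 did not take part. In the 6 libraries above, its log2 ratio to the group median lay between -0.52 and 0.23. Its own high libraries were others: FS animal 20 at B (124.9 CPM), FS animal 9 at FR2 (135.7) and CPF animal 7 at B (147.2) and FR2 (124.6). FS animal 20 was at 20.4 CPM at FR2, the lowest of that group, and at 15.6 at FR20, again the lowest. Over the 18 FS libraries at FR8 the SD of log2 CPM was 0.28 for IRF1, where 11.3% of genes had a lower one, and 1.69 for RSAD2, where 95.9% had. In the same libraries MX1, MX2, IFIT1 and USP18 had SDs of 1.05, 1.13, 1.09 and 0.94, above those of 85.8%, 88%, 87.1% and 81.3% of genes.

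The other pathway genes were examined in these libraries next. A list of other antiviral effectors, drawn up for their known function but with earlier results of these data known, held 25 genes with enough counts. In animal 12 at FR8 17 of the 25 were at least 2 times the group median (median log2 ratio 1.90), beside 5.56% of all genes tested. In animal 10 at FR2 it was 17 of 25 (1.62), beside 12%, and in animal 21 at FR2 12 of 25 (0.94), beside 7.83%. In animal 12 at FR20 it was 13 of 25 (1.05), beside 2.87%, and at Baseline 1 of 25 (0.45), beside 3.78%. CPF animal 18 at FR8 had 5 of 25 (0.48), beside 1.94%. In each of these 6 libraries except that of animal 21 the list's median was the highest of its group, and animal 21 was second to animal 10. Of the 11 genes of the interferon gamma and antigen presentation list, 4 were at least 2 times the median in animal 12 at FR8, beside the 5.56% of all genes, and 0 or 1 in the other 5 libraries. The median log2 ratio of that list lay between -0.46 and 0.14 in the 6 libraries, and the difference between the lists was not tested.

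**Figure D5:**
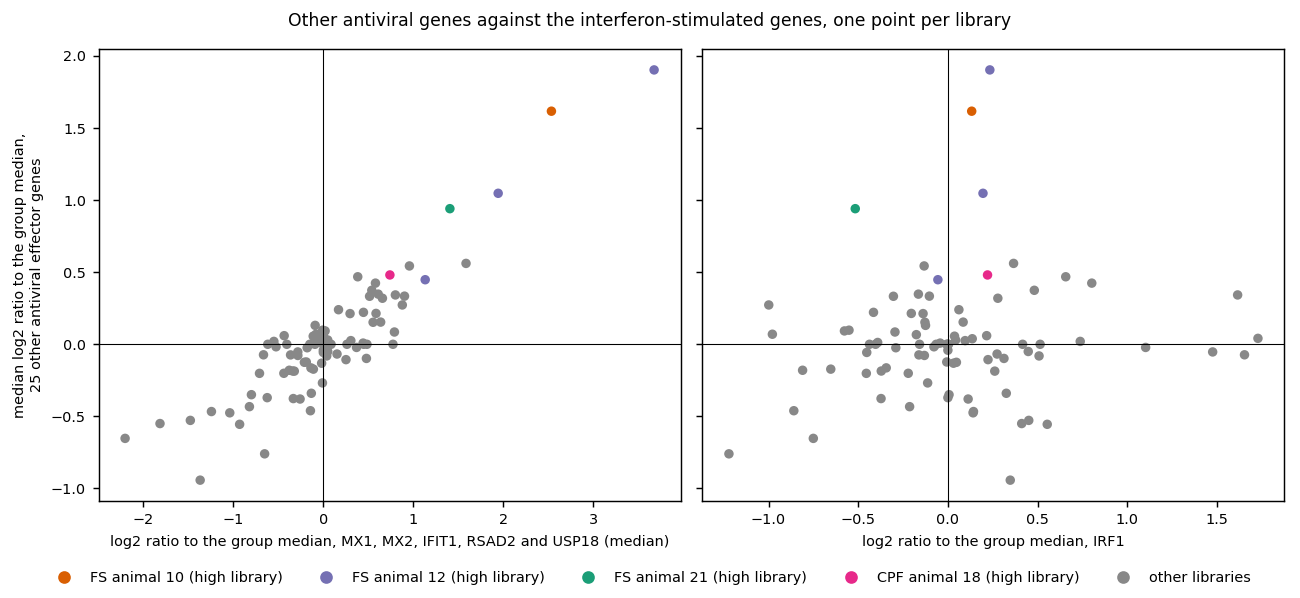
Each point is 1 of the 88 libraries, placed by the log2 ratio to its group's median of the 25 other antiviral effectors (vertical axis, median) and of the 5 members MX1, MX2, IFIT1, RSAD2 and USP18 (left, median) or of IRF1 (right). In the left panel animal 12 at FR8 (3.67 across, 1.90 up) and animal 10 at FR2 (2.53 and 1.62) lie farthest to the top right, while animal 12 at B (1.13 and 0.45) and CPF animal 18 at FR8 (0.74 and 0.48) lie within the range of libraries outside the 6, such as CPF animal 18 at FR20 (1.59 and 0.56), and the 6 colored libraries lie near 0 on the horizontal axis of the right panel except for animal 21.

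Across the 88 libraries the members fell into the same split. As a description over libraries that share animals, Pearson's r between log2 CPM values was 0.87 for IFIT1 with RSAD2, 0.79 for MX1 with USP18 and 0.75 for IFIT1 with USP18. MX2 was least like the other 4, with r between 0.46 (MX1) and 0.69 (RSAD2). IRF1 had r between -0.03 (MX2) and 0.15 (USP18) with each of the others. Spearman's rho and Pearson's r differed by at most 0.13 in the 15 pairs.

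Among the 13661 genes outside the group, the 10 whose log2 CPM was most like the mean standardized log2 CPM of MX1, MX2, IFIT1, RSAD2 and USP18 over the 88 libraries were CMPK2 (r = 0.88), IFI44 (0.83), the unnamed identifier ENSSSCG00000010453 (0.82), DDX60 (0.81), DHX58 (0.81), UBE2L6 (0.77), IFI44L (0.75), RIGI (0.74), IFIH1 (0.74) and PARP12 (0.73). CMPK2 is a mitochondrial nucleotide kinase, RIGI, IFIH1 and DHX58 are the cytosolic RNA sensors of the RIG-I family, and UBE2L6 is the enzyme that passes ISG15 to its targets. Of the 10, 8 stood on the pathway lists. Their highest value over all 88 libraries was in animal 12 at FR8 for 7 genes, CMPK2 at 150.1 and RIGI at 362.9 CPM among them, and in animal 10 at FR2 for DDX60 (51.4), UBE2L6 (62.5) and IFI44L (184.8). Over the 82 libraries left without the 6 high ones, a subset chosen after the values were seen, r with the same mean was between 0.53 (PARP12) and 0.79 (CMPK2). The r of IRF1 with this mean was 0.08, and the median gene had 0.02.

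Whether an animal's Baseline level carried over to later biopsies was computed in the 15 FS animals with a Baseline library, as 18 relations (6 members and 3 later timepoints) with permutation tests. For MX2 the Baseline level was related to that at FR20, with r = 0.78 (permutation p = 0.00065, adjusted p over the 18 relations = 0.0117) and rho = 0.71 (permutation p = 0.00412, adjusted 0.0742). Without the 2 animals farthest from the median at Baseline (6 and 12) r was 0.74. For MX2 at FR2 and FR8 r was 0.54 and 0.59 (adjusted permutation p = 0.181 and 0.127). The relation was past the threshold with Pearson's r in 1 of 18 and with rho in 0 of 18. For IFIT1 at FR8 r was 0.62 (adjusted permutation p = 0.137) and 0.03 without animals 12 and 14, so that value rested on those animals.

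The rest of the pathway was taken by role, from lists that were drawn up with earlier results of these data known. Over the 64 genes of the other interferon lists that were tested, 6 were called at FS FR2vB (4 rose, 2 fell), 6 at FR8vB (3 rose, 3 fell) and 2 at FR20vB (1 rose, 1 fell), which are 9.38%, 9.38% and 3.12% beside the 11%, 11.8% and 9.94% of all genes. In CPF animals 1, 3 and 0 were called, which are 1.56%, 4.69% and 0% beside 2.41%, 8.83% and 0.702%, and in the difference between the fed groups 0, beside 0% in each. These shares stayed at or under those of all genes in both fed groups.

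Of the interferon ligands none had enough counts to be tested. IFNB1 and IFNE were listed at 0 in every library, IFN-DELTA-1 had 30 counts and IFNK 1 count over all libraries used, and the other 13 ligands were not analysed here. Among the 6 receptor and JAK-STAT genes tested, JAK1, the kinase shared by the type I and type II receptors, rose at FR2vB in FS animals (log2 change 1.42, SE 0.25, adjusted p = 9.53e-06) and fell from FR2 to FR8 (-1.05, SE 0.23, adjusted p = 0.000449). Its levels ran from 1.89 to 93.5 CPM over all libraries. None of these genes was called in CPF animals, where STAT2 and IRF9, the most abundant of the list, stood at medians of 51.5 and 42.1 CPM over all libraries.

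Of the 14 sensor and adaptor genes tested, MYD88, the adaptor of most Toll-like receptors, was the one called. It rose at FR8vB in FS animals (1.46, SE 0.18, adjusted p = 1.23e-07) and in CPF animals (1.85, SE 0.33, adjusted p = 0.000835). Of all genes 11.8% (FS) and 8.83% (CPF) were called there. With the adjusted p alone, 2 of the 14 rose and 4 fell at FS FR2vB. At FR8vB 1 rose and 3 fell, and at FR20vB 3 rose and 2 fell. Among them RIGI rose at FR2vB (0.91, adjusted p = 0.000971) and fell from FR2 to FR8 (-0.67, adjusted p = 0.0147). DHX58 fell at FR2vB, FR8vB and FR20vB (-0.58, -0.83 and -0.63). Among the 5 negative regulators, TNFAIP3 fell at FS FR8vB (-1.002, SE 0.21, adjusted p = 8.94e-05), and SOCS1, which blocks JAK kinases, fell from FR2 to FR8 (-1.10, SE 0.33, adjusted p = 0.00928).

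Among the 25 other antiviral effectors few were called. In FS animals 2 rose and 0 fell at FR2vB, 2 rose and 1 fell at FR8vB, and 1 rose and 0 fell at FR20vB. Of all genes 11%, 11.8% and 9.94% were called there. In CPF animals 2 rose and 0 fell at FR8vB, beside 8.83% of all genes. With the adjusted p alone the FS directions were mixed. At FR2vB 7 rose and 3 fell, at FR8vB 6 rose and 5 fell, and at FR20vB 7 rose and 1 fell. IFIT5 rose at FS FR2vB (1.04, SE 0.17, adjusted p = 1.73e-06). TRIM25, the ubiquitin ligase that activates RIG-I, rose at FR2vB, FR8vB and FR20vB in FS animals (1.29, 1.31 and 1.07, with adjusted p of 0.000617, 0.000455 and 0.00501). ISG20, an exonuclease, rose at FR8vB in FS (1.497, SE 0.31) and CPF animals (2.12, SE 0.59), and SAMHD1, which depletes nucleotides, rose at FR8vB in CPF animals (1.47, SE 0.40). OAS2, an activator of RNase L, fell at FS FR8vB (-1.09, SE 0.27, adjusted p = 0.000905). The list's median log2 change was -0.06, -0.18 and 0.08 at the 3 FS timepoints, beside -0.04, 0.00 and 0.04 for all genes.

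Of the 11 interferon gamma and antigen presentation genes tested, CXCL11, a chemokine for T cells, fell at all 3 FS timepoints (-1.32, -1.99 and -1.75). It was a low gene, with a median of 1.33 CPM over all libraries. IDO1, the tryptophan-degrading enzyme, rose at FS FR2vB (2.09, SE 0.53) and fell from FR2 to FR8 (-1.58, SE 0.48), at a median of 0.450 CPM. CD274 (PD-L1) rose at FR2vB in CPF animals (3.30, SE 0.91) at a median of 0.504 CPM. At CPF FR20vB, at FS FR20vFR8 and in the comparisons of the fed groups and of survival, 0 genes of these lists were called. The most abundant of each other list, given for that reason, were MYD88 (55.7 CPM) and RIGI (51.6), IRF9 (42.1) and IRF3 (40.7), PTPN11 (94.0) and PTPN6 (24.3), TRIM26 (74.5) and OAS2 (60.2), and TAPBP (31.1) and WARS (25.2), as medians over the 88 libraries.

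Cell type markers moved over the same hours, and in whole biopsies fewer cells of a type cannot be told apart from less RNA per cell. The summed hepatocyte markers (6 genes, led by albumin) had FS medians of 179112 CPM at B, 128132 at FR2, 77200 at FR8 and 44344 at FR20, and albumin, TTR and TF were called as falling at FR8vB and at FR20vB. FGB, a fibrinogen chain of the same list, was called as rising at FR8vB (1.10, SE 0.36, adjusted p = 0.0127). The summed macrophage markers (5 genes) had FS medians of 1505, 1125, 991 and 991 CPM, and the T and NK cell markers (7 identifiers) of 31.5, 28.7, 29.2 and 27.4. Most of the macrophage sum was CD14 and C1QA, with medians of 780 and 263 CPM over all libraries. By the adjusted p alone 4 of the 5 macrophage markers fell at FS FR20vB, while CD68 rose (0.41, SE 0.14, adjusted p = 0.0166). From FR2 to FR8 in FS animals, the comparison in which RSAD2 fell, 0 of 6 hepatocyte, 0 of 5 macrophage and 0 of 7 T and NK cell markers were called, with median log2 changes of -0.54, -0.09 and -0.12. With the adjusted p alone, as for RSAD2, MX2 and IFIT1 above, 3 of 6 hepatocyte (albumin -0.72, TTR -0.89 and APOB -0.57), 1 of 5 macrophage (MARCO, -0.60) and 1 of 7 T and NK cell markers (PRF1, -0.90) were past the threshold as falling, beside the 13.9% of all genes. In the high libraries the hepatocyte sum was 45595 CPM in animal 10 at FR2, the lowest of its group, and 61520 in animal 12 at FR8, where the group ran from 49623 to 176226. Animal 12 at FR20 was the lowest of its group for hepatocyte (19602) and macrophage (727.0) markers. Animals 17, 19 and 21, whose Baseline libraries were left out, held hepatocyte sums of 141949, 114563 and 139786 CPM at FR20, beside the group median of 44344. The B cell and plasmacytoid markers, of which 3 genes were tested, were at 0.719 to 2.71 CPM in the 6 high libraries, beside group ranges that reached 9.74. Neutrophil markers went up: of the 2 genes tested, S100A8 was called as rising at FS FR2vB, FR8vB and FR20vB (3.29, 2.57 and 1.94). MPO was called as rising at FS FR20vB (2.61). Both were low, with medians of 1.39 and 0.141 CPM over all libraries. The part of cell composition in the members' levels was not tested.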

How the data were processed

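Single reads from poly-A selected RNA of whole liver biopsies were, per the labels and the study's methods, demultiplexed with CASAVA 1.8.2, aligned to Sscrofa10.2 with TopHat 1.5.0, sorted with SAMtools and counted with HTSeq. The authors deposited whole-number counts per pig Ensembl gene, not normalized, with 1 column per library. The mode and strand option used for HTSeq are not given in the sources used here. Symbols came from a gene name table that matched 11804 identifiers.

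Members and lists were chosen with earlier results of these data known. Counts were analyzed in R 4.3.3 with edgeR 4.0.16 (TMM, sum of CPM of at least 10, quasi-likelihood F test, 2-sided), checked on simulated counts. Changes were fitted on 88 libraries, with animal terms and, in each fed group, a term per later timepoint. The fed groups, and animals that died or lived (term for fed status), were compared within a timepoint. Calls needed an adjusted p under 0.05 and a log2 change of 1 or more in size. CPM in the text use TMM-scaled totals, and log2 CPM a prior count of 2. Pairing comes from the animal in each label: after group means were removed, the median correlation was 0.21 within animals (over 0.1 in 94 of 126 pairs) and -0.02 between animals (414 of 1791).

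The genes named are the members; from each other list, per comparison, at most the 3 called with the largest rise and the 3 with the largest fall, or else the 2 most abundant; the 10 most correlated non-members; and the leading cell type markers, apart from genes that are not reported here. Relations over animals used 100000 permutations with Python 3.11.15 and scipy 1.17.1. Alternatives were RLE scaling, no filter, a sum of CPM of at least 3, DESeq2 1.42.0, edgeR's likelihood ratio test, calls by adjusted p only, keeping the 3 libraries without albumin, no animal terms, each animal left out, and Spearman for Pearson correlation. No sequencing batch is given, so none was modeled.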

Additional observations from a re-analysis of the deposited data

Results flagged for a closer look

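Over the 24 sets of a member and a CPF group, each of 4 or 5 libraries, 3 held a library whose gap to the nearest other was above Dixon's 95% critical value. The gaps were taken on CPM and not on log2 CPM, where a high value stands out less. Chance gives about 1 in 20 only for independent sets of normally distributed values. These sets share the same CPF animals and correlated genes, so the count of flags was not set against a chance rate. RSAD2 at FR20 was 10.1 CPM in CPF animal 18, beside 1.31 to 3.42 in the other 4 animals. USP18 was 43.9 CPM in CPF animal 8 at B, beside 12.4 to 19.9 in the others, and 33.4 CPM in the same animal at FR2, beside 11.3 to 12.5. At FR8 and FR20 USP18 in animal 8 was 11.6 and 13.3 CPM, inside the range of its groups. Groups of more than 10 libraries, such as those of FS animals, were not tested in this way. No member changed in opposite directions in all FS and all CPF animals.

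In the 3 FS Baseline libraries without albumin, the 6 members lay within or below the range of the other FS Baseline libraries, as CPM of each library's own total. MX1 was 12.1 to 19.6, beside 13.9 to 66.1, and IRF1 was 20.2 to 42.0, beside 19.004 to 106.7.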

How the results depend on the processing

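The count of 0 members called held in 18 of the 19 comparisons under every alternative run. In FS FR8vFR2, where 1 member was called, 3 passed with the adjusted p alone, 2 with no filter on low counts, 2 with the CPM sum lowered to 3, 0 without the replicate block, and 0 to 2 when animals were left out in turn. It was 0 without animal 10 and 2 (RSAD2 and MX2) without animal 5, 9, 11, 12, 15, 17 or 21. Without the replicate block RSAD2 turned to 0.86 at FS FR8vB and to -0.80 at FS FR20vFR8, and IFIT1 to -0.23 at FS FR20vFR8. The block changed no call of a member in the other comparisons, and the cause was not tested. A sign within 1 standard error of 0 in both fits was not taken as a direction (40 of 1440 values). By Spearman's rho, 7 of the 10 most similar genes stayed among the first 10. Over all genes, where calls moved by more than 1.5 times, the 329 of CPF FR2vB were 99 with the 3 libraries without albumin kept, 216 without the block, 512 with the likelihood ratio test, 545 with DESeq2, and 19, 41, 59 and 150 without animal 13, 18, 3 and 7. The 1207 of CPF FR8vB were 409 with those libraries and 316 without animal 18. The 96 of CPF FR20vB were 0 with those libraries, 0 without the block, 244 with the likelihood ratio test, 302 with DESeq2, 0 to 4 without animal 3, 7, 8 or 18, and 160 to 356 without animal 10, 13, 17, 19 or 21. The 200 of FS FR20vFR8 were 126 with those libraries, 130 without animal 14 and 301 to 318 without animal 17, 19 or 21. The 3 of CPFvFS at B were 1 with those libraries, 5 with no filter on low counts, 26 with the likelihood ratio test, 31 with DESeq2, and 10 to 18 without animal 10, 18 or 20. From 0, the counts of DiedvLived and of the fed groups' differences rose to at most 19. The fit without animal terms exists only for the changes within animals, and the libraries without albumin enter no comparison at FR2, FR8 or FR20. RSAD2 and MX2 rested on as few as 3 and 2 counts in a library, so their low values carry wide counting error.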
